A study of Mus musculus with 6 samples.

Results

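The 6 chemokine genes Ccl1, Ccl3, Ccl4, Ccl5, Ccl9 and Xcl1 were followed across all libraries of a bulk RNA-seq study of mouse CD8+ T cells. They were picked by symbol from a table of 18122 rows, and all 6 were found, with values above 0 in all 6 libraries. The study has 4 groups: Dusp2-/- CD44hi (2 libraries), WT CD44hi (2 libraries), Dusp2-/- CD44lo (1 library) and WT CD44lo (1 library). Lymph node CD8+ T cells of Dusp2-/- or WT mice were activated for 18 hours on plates coated with 1 µg/mL anti-CD3, together with 1 µg/mL anti-CD28, 50 ng/mL IFN-α and 20 ng/mL IL-4, a mixture meant to induce virtual memory cells (Tvm in the labels), and the brightest CD44 cells were then sorted apart from the CD44lo cells. All groups therefore share the activating mixture, and no unstimulated cells are among the libraries analysed here. Dusp2 encodes a nuclear phosphatase that inactivates MAP kinases. The labels do not say how the Dusp2-/- allele was made, how old the mice were, or whether replicate libraries came from separate mice or cultures, so a p-value here speaks only of the spread between these libraries, and that spread may be technical.

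Chemokines are small secreted proteins that steer leukocytes along concentration gradients by binding G protein-coupled receptors on the cells they attract. Activated CD8+ T cells secrete several of them soon after antigen contact. Ccl3, Ccl4 and Ccl5 draw monocytes and T cells, and Xcl1 draws the cross-presenting dendritic cells that carry Xcr1. Ccl1 is the ligand of Ccr8. Ccl9 is a ligand of Ccr1, described in mice mainly as a product of myeloid cells.

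The libraries held between 42816073 and 55830235 reads as recovered from the deposited values, apart from the Dusp2-/- CD44lo library with 23490008. Dusp2 itself was at 0 and 0.0283 FPKM (fragments for each kilobase of a gene's length, relative to the fragments mapped in the library) in Dusp2-/- CD44hi and at 82.6 and 83.9 FPKM in WT CD44hi, and at 0 in Dusp2-/- CD44lo against 116 FPKM in WT CD44lo, which fits the titles. The treatment text of the labels names Cd4-Cre mice with floxed Rpa1 instead. Rpa1 was at 41.3 and 41.4 FPKM in Dusp2-/- CD44hi and at 33.7 and 35.2 FPKM in WT CD44hi. Cd44 was at 65.3 to 79.9 FPKM in the CD44hi libraries and at 1.33 and 1.43 FPKM in the CD44lo libraries. The 5 measured CD8 T cell markers summed to 915 to 1309 FPKM in every library. Markers of CD4 T cells summed to at most 0.801 FPKM and those of NK cells to at most 0.823 FPKM. Of the macrophage markers in the table, Lyz2, Adgre1, Itgam and C1qa were at or below 0.134 FPKM in all libraries and Cd68 was at 2.55 to 4.11 FPKM. Of the dendritic cell markers, Flt3 and Xcr1 were at or below 0.0159 FPKM, Itgax at 0.159 to 1.67 FPKM and Zbtb46 at 0.145 to 1.86 FPKM. Of the B cell markers, Cd79a and Cd22 were at or below 0.379 FPKM, Cd79b at 6.92 to 24.5 FPKM and Ighm at 110 to 140 FPKM. In bulk samples, fewer cells of a type and less RNA per cell cannot be told apart.

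Of the 6 genes, 5 lie on mouse chromosome 11 and Xcl1 lies on chromosome 1 (RefSeq gene table of GRCm38.p6, used for names and gene order only). Ccl5, Ccl9, Ccl6, Ccl3 and Ccl4 are consecutive protein-coding genes there, and 25 protein-coding genes lie between Ccl1 and Ccl5. Ccl6, the non-member inside this cluster, was listed at 0 in 5 libraries and at 0.0421 FPKM in Dusp2-/- CD44hi replicate 2, which is 1 read. By the GENCODE annotation, Xcl1 alone shares exon sequence with another gene, 98 of its 523 exon bases, on the opposite strand (Gm20743). Whether the counting used strand is not given in the sources used here.

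The sequences before the start are shown for the 4 members that had a RefSeq promoter window. Among them are the gene with the largest genotype difference in CD44hi (Ccl3) and those with the largest fraction differences (Ccl1 and Ccl9). The remaining one, Xcl1, did not pass the genotype test. RefSeq promoter windows matched 4 of the 6 genes, all but Ccl4 and Ccl5. Each line holds the 250 bases before the RefSeq start, read 5′ to 3′ on the minus strand of GRCm38.p6 (chr1:164935523-164935772 for Xcl1, chr11:83649379-83649628 for Ccl3, chr11:83578637-83578886 for Ccl9 and chr11:82179813-82180062 for Ccl1). Capitals mark matches, on either strand, to the letters searched.
Xcl1: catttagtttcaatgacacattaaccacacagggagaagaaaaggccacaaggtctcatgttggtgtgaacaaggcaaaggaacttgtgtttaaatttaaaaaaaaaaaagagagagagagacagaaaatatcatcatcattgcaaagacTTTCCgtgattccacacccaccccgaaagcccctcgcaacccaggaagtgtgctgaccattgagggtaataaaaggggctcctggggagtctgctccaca
Ccl3: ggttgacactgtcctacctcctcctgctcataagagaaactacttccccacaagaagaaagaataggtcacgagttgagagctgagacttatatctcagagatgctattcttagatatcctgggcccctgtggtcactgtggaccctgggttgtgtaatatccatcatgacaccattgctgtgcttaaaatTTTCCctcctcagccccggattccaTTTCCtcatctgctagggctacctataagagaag
Ccl9: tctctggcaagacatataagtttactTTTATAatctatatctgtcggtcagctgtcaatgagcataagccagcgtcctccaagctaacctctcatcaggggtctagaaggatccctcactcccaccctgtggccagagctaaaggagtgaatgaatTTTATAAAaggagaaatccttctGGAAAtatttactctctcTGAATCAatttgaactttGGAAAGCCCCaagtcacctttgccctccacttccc
Ccl1: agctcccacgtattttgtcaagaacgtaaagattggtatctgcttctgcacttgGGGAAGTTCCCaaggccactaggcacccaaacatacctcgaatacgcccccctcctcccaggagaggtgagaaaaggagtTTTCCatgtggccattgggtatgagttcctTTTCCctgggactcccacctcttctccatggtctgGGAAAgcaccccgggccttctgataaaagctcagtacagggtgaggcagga
The letters searched were GGG, any 5 bases and CC for NF-kB, GGAAA for the NFAT core, TGANTCA for AP-1, TGACGTCA for CRE, GCGTGGGCG for EGR, TTCNNNGAA for GAS and TATAAA for the TATA box. The NFAT core letters were in all 4 windows, 3 times in Ccl1, 2 times each in Ccl3 and Ccl9 and 1 time in Xcl1, and in 55.6% of the 32851 mouse promoter windows of this length. The NF-kB letters were in Ccl1, as 2 matches that overlap each other 196 to 186 bases before the start, and in Ccl9, 35 to 26 bases before the start and overlapping an NFAT core match. They were in 45.8% of all windows. Ccl9 alone among the 4 windows held the AP-1 letters (6.75% of all windows) and the TATA letters, 3 times with 2 of the matches overlapping (12.4% of all windows). The CRE, EGR and GAS letters were in none of the 4 windows and in 1.55%, 0.536% and 7.02% of all windows. A match describes these letters and is not a bound site.

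The 6 genes spanned a wide range of transcript levels, and their order hardly varied. Per length, in FPKM, the order in 5 of the 6 libraries was Xcl1, Ccl4, Ccl3, Ccl9, Ccl1 and Ccl5. In WT CD44lo, Ccl5 (1.25 FPKM, 61 reads) stood above Ccl1 (0.539 FPKM, 65 reads). Xcl1 was among the most abundant transcripts of the whole table, ranking between 15 and 24 of all rows in each library. Neighbours in the order were well apart in most groups, the closest pair among replicated groups being Ccl9 and Ccl1 in WT CD44hi. There Ccl9 averaged 22.4 ± 2.52 FPKM and Ccl1 18.8 ± 2.32 FPKM (SD, n = 2 each), and the lowest Ccl9 value, 20.7, was just above the highest Ccl1 value, 20.5, so this step is close to the spread between libraries.

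**Figure D1:**
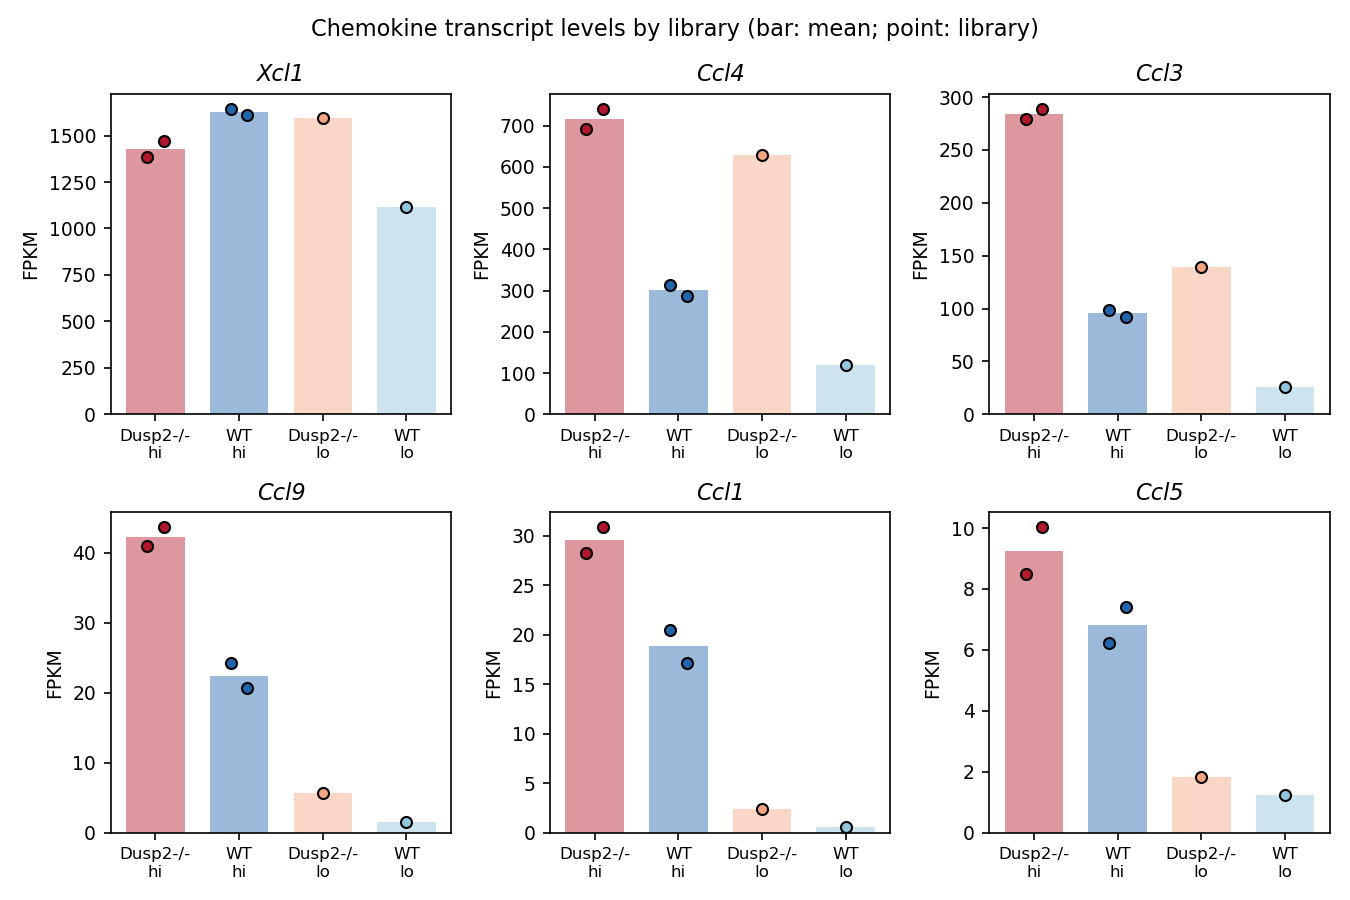
Transcript level of each chemokine gene in FPKM, with a linear axis from 0 of its own for each gene. Points are libraries and bars are group means (2 libraries in each CD44hi group, 1 in each CD44lo group). The Dusp2-/- points are above the WT points of the same fraction for every gene except Xcl1 in CD44hi, and Ccl4 in Dusp2-/- CD44lo (628 FPKM) stands above both WT CD44hi libraries.

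The genotypes were compared in the CD44hi fraction with 2 Dusp2-/- and 2 WT libraries. Of the 6 genes, 5 were higher in Dusp2-/- CD44hi and Xcl1 did not pass the test. Over all 9691 genes tested, limma with Benjamini-Hochberg adjustment called 26.7% at an adjusted p under 0.05, with 12.9% higher and 13.8% lower in Dusp2-/-. Differences are of log2(FPKM + 1), which understates the change of genes with low FPKM. An exact permutation test of 2 against 2 libraries cannot go below 0.333, so the adjusted p-values rest on the spread that limma shares across genes. Without the filter on low values, 0 of the 6 genes passed in limma (4 had an unadjusted p under 0.05), and the adjusted p of the 5 higher genes was 0.057 to 0.207.

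Ccl3, a ligand of Ccr1, was at 279 and 289 FPKM in Dusp2-/- CD44hi and at 98.5 and 92.2 FPKM in WT CD44hi. Both Dusp2-/- libraries were far above both WT libraries. The mean was 2.98-fold higher (log2 difference 1.56, SE 0.069, adjusted p = 0.00015), which ranked 11 from the highest of all genes tested. Ccl4, an attractant of monocytes and T cells encoded beside Ccl3, was at 691 and 741 FPKM in Dusp2-/- CD44hi, against 313 and 288 FPKM in WT CD44hi. The groups did not overlap, and the mean was 2.38-fold higher (log2 difference 1.25, SE 0.088, adjusted p = 0.00085). In absolute terms Ccl4 gained the most FPKM of the 6 genes, with means of 716 ± 35.4 FPKM in Dusp2-/- CD44hi and 300.4 ± 17.6 FPKM in WT CD44hi (SD, n = 2 each).

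Ccl9 was at 40.9 and 43.7 FPKM in Dusp2-/- CD44hi and at 24.2 and 20.7 FPKM in WT CD44hi. The groups were apart by much more than either pair was, and the mean was 1.89-fold higher (log2 difference 0.89, SE 0.090, adjusted p = 0.0022). Ccl1 was at 28.3 and 30.9 FPKM in Dusp2-/- CD44hi, against 20.5 and 17.2 FPKM in WT CD44hi. It too showed no overlap, with a 1.57-fold higher mean (log2 difference 0.63, SE 0.099, adjusted p = 0.0077).

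Ccl5, a T cell attractant known from memory CD8+ T cells, was at 8.49 and 10.0 FPKM in Dusp2-/- CD44hi and at 6.23 and 7.41 FPKM in WT CD44hi. The lower Dusp2-/- library was only slightly above the higher WT library. The mean was 1.36-fold higher (log2 difference 0.39, SE 0.113, adjusted p = 0.045). That call was lost without Dusp2-/- CD44hi replicate 2 (log2 difference 0.28, adjusted p = 0.267) and without WT CD44hi replicate 1 (0.28, adjusted p = 0.076), and also with quantile normalization (adjusted p = 0.063), at a pseudocount of 0.1 (adjusted p = 0.0505), without the variance trend (adjusted p = 0.0506) and with voom on recovered reads (adjusted p = 0.069). Over all alternatives tried the adjusted p of Ccl5 ran from 0.0047 to 0.267.

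Xcl1 was at 1386 and 1469.7 FPKM in Dusp2-/- CD44hi and at 1644 and 1610.3 FPKM in WT CD44hi. Both Dusp2-/- libraries were lower than both WT libraries, by a margin that did not pass the test (log2 difference -0.19, SE 0.112, adjusted p = 0.248). The difference was -0.11 with quantile normalization and -0.0438 with a length trend removed. It passed without WT CD44hi replicate 1 (-0.17, adjusted p = 0.048) or WT CD44hi replicate 2 (-0.20, adjusted p = 0.039). In both of those fits the spread came from the Dusp2-/- CD44hi pair alone. The difference between Xcl1 and the other 5 genes was not tested as such.

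Both Dusp2-/- CD44hi libraries were above both WT CD44hi libraries for 5 of the 6 genes and for 32.0% of all genes tested. Left-out libraries moved the count of all genes called, 2586 in the full data, to 1196 without Dusp2-/- CD44hi replicate 1, 1077 without Dusp2-/- CD44hi replicate 2 and 4105 without WT CD44hi replicate 1. Mitochondrially encoded genes took 2.73% and 2.94% of reads in Dusp2-/- CD44hi and 2.15% and 2.03% in WT CD44hi. Of these 13 genes, 8 were higher in Dusp2-/-, against 12.9% of all genes tested. The 4 measured B cell markers summed to 147 and 151 FPKM in Dusp2-/- CD44hi, against 123 and 141 FPKM in WT CD44hi, mostly Ighm. Ighm was at 125 and 126 FPKM in Dusp2-/- CD44hi and 110 and 131 FPKM in WT CD44hi. Cd79b was at 22.4 and 24.5 FPKM in Dusp2-/- CD44hi and 12.2 and 9.88 FPKM in WT CD44hi. Cd79a (at most 0.379 FPKM) and Cd22 (at most 0.0225 FPKM) were near 0. The 4 measured dendritic cell markers summed to 3.32 and 3.04 FPKM in Dusp2-/- CD44hi and 2.28 and 2.13 FPKM in WT CD44hi. Zbtb46 was at 1.86 and 1.82 FPKM in Dusp2-/- CD44hi and 0.619 and 0.653 FPKM in WT CD44hi. Itgax leaned the other way, at 1.44 and 1.20 FPKM in Dusp2-/- CD44hi and 1.67 and 1.46 FPKM in WT CD44hi. Flt3 and Xcr1 were near 0. Of the 5 CD8 T cell markers, 3 were called lower in Dusp2-/- CD44hi and none was called higher (median log2 difference -0.40). Over all genes tested, 13.8% were called lower. Cd3e, a T cell receptor subunit, was at 51.7 and 53.5 FPKM in Dusp2-/- CD44hi and 88.6 and 76.9 FPKM in WT CD44hi. Cd8a was at 246 and 259 FPKM in Dusp2-/- CD44hi and 302 and 262 FPKM in WT CD44hi. Cd8b1 was at 384 and 409 FPKM in Dusp2-/- CD44hi and 386 and 357 FPKM in WT CD44hi. The part of the mitochondrial share, of the CD8 T cell markers and of Cd79b and Zbtb46 in these results was not tested.

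In the CD44lo fraction each genotype had 1 library, so the differences are described without a test. All 6 genes were higher in the Dusp2-/- CD44lo library than in the WT CD44lo library, as were 48.4% of all genes tested. Of the 6, 4 were at least 2-fold higher on the log2(FPKM + 1) scale, against 0.795% of all genes (1.68% in either direction). The intervals given are exact 95% intervals of the ratio from recovered reads, and they cover counting error only.

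Ccl3 was at 139 FPKM in Dusp2-/- CD44lo and 25.5 FPKM in WT CD44lo, a ratio of 5.46 (5.07 to 5.88). Ccl4 was at 628 FPKM in Dusp2-/- CD44lo and 120.4 FPKM in WT CD44lo, a ratio of 5.21 (5.03 to 5.41). Their log2 differences, 2.40 and 2.37, ranked 6 and 7 from the highest of all genes tested, so these neighbouring genes differed by nearly the same factor. Ccl1 was at 2.42 FPKM in Dusp2-/- CD44lo and 0.539 FPKM in WT CD44lo, from 137 and 65 reads, a ratio of 4.50 (3.32 to 6.14). Ccl9 was at 5.75 FPKM in Dusp2-/- CD44lo and 1.51 FPKM in WT CD44lo, a ratio of 3.81 (3.24 to 4.49). For Ccl1 the log2 difference of 1.15 understates that ratio because its WT level is under the pseudocount of 1 FPKM.

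The other members differed less in CD44lo. Xcl1 was at 1592 FPKM in Dusp2-/- CD44lo and 1116 FPKM in WT CD44lo, a ratio of 1.43 (1.40 to 1.45). Its log2 difference in CD44lo was 0.51, and 0.13 with quantile normalization. Ccl5 was at 1.83 FPKM in Dusp2-/- CD44lo and 1.25 FPKM in WT CD44lo, a ratio of 1.47 whose interval (0.967 to 2.21) reaches below 1. The mitochondrial share of reads was 3.79% in Dusp2-/- CD44lo and 2.56% in WT CD44lo, and its part in these differences was not tested. The CD44lo difference also fell with gene length over all genes tested (Spearman's rho -0.329), and Xcl1, Ccl4 and Ccl3 are short genes. With a length trend removed, 4 of the 6 genes were still at least 2-fold higher.

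**Figure D2:**
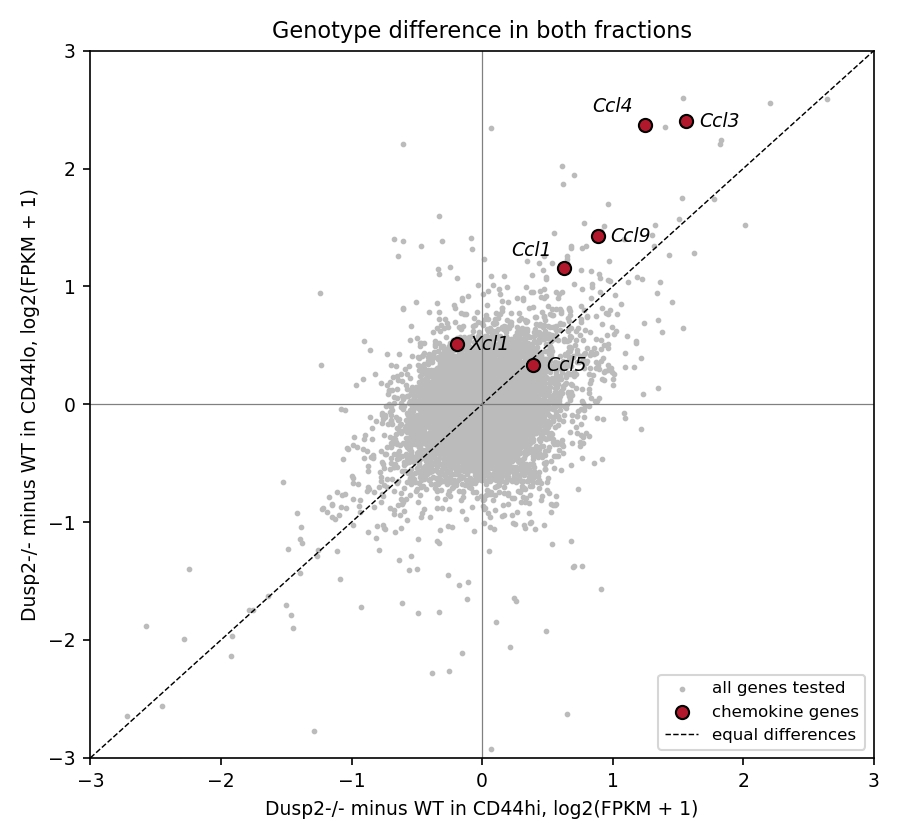
Each point is a gene, with its Dusp2-/- minus WT difference of log2(FPKM + 1) in CD44hi on the horizontal axis and in CD44lo on the vertical axis. Grey points are the genes tested, red points are the chemokine genes and the dashed line marks equal differences. The axes end at 3 in either direction, which leaves 9 genes undrawn. Ccl3, Ccl4, Ccl9 and Ccl1 stand above the dashed line in the upper right, Ccl5 is close to the line, and Xcl1 is left of 0 and above 0.

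The sort itself was compared within each genotype, with 2 CD44hi libraries against 1 CD44lo library, and the single library is assumed to vary like the CD44hi pairs. In Dusp2-/- cells 4 of the 6 genes were higher in CD44hi and in WT cells all 6 were. The background was 40.1% of all genes called in Dusp2-/- (23.6% higher and 16.5% lower in CD44hi) and 26.1% called in WT (15.4% higher and 10.7% lower in CD44hi). The 5 genes other than Xcl1 were above the CD44lo library in both CD44hi libraries of each genotype, as were 51.0% of all genes in Dusp2-/- and 48.3% in WT. Among Dusp2-/- cells the count of all genes called, 3888, was 2533 without Dusp2-/- CD44hi replicate 1 and 2505 without Dusp2-/- CD44hi replicate 2. Among WT cells it was 2527, and 3815 without WT CD44hi replicate 2. The 4 dendritic cell markers summed to 3.32 and 3.04 FPKM in Dusp2-/- CD44hi against 1.14 FPKM in Dusp2-/- CD44lo, and to 2.28 and 2.13 FPKM in WT CD44hi against 0.305 FPKM in WT CD44lo, and their part in the fraction differences was not tested. Of the 5 CD8 T cell markers, 4 were lower in CD44hi of Dusp2-/- cells (median log2 difference -0.40) and 1 in CD44hi of WT cells (median -0.05), none being higher. Of the 13 mitochondrially encoded genes, 6 were lower in CD44hi of Dusp2-/- cells and 4 in CD44hi of WT cells. Of the 2 B cell markers tested, 1 was higher in CD44hi of each genotype. The part of these lists was not tested.

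Ccl1 and Ccl9 showed the steepest steps between the fractions. In Dusp2-/- cells Ccl1 averaged 29.6 ± 1.81 FPKM in CD44hi (SD, n = 2) against 2.42 FPKM in CD44lo, a log2 difference of 3.16 (SE 0.121, adjusted p = 6.1e-05). In WT cells it averaged 18.8 ± 2.32 FPKM in CD44hi against 0.539 FPKM in CD44lo, a log2 difference of 3.68 (SE 0.121, adjusted p = 3.3e-05). These steps ranked 4 and 3 from the highest of all genes tested, and no CD44lo library came near a CD44hi one. As ratios of mean FPKM they were 12.2 in Dusp2-/- cells and 35.0 in WT cells. The log2 difference understates the WT ratio most, because the WT CD44lo level is under the pseudocount of 1 FPKM. Ccl9 averaged 42.3 ± 1.93 FPKM in Dusp2-/- CD44hi against 5.75 FPKM in Dusp2-/- CD44lo (log2 difference 2.68, SE 0.110, adjusted p = 6.8e-05). In WT cells Ccl9 averaged 22.4 ± 2.52 FPKM in CD44hi against 1.51 FPKM in CD44lo (log2 difference 3.22, SE 0.110, adjusted p = 3.6e-05). In both genotypes Ccl9 was thus at a low level outside the CD44hi fraction. The ratio of its mean FPKM between the fractions was 7.35 in Dusp2-/- cells and 14.9 in WT cells.

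Ccl5 rose by nearly the same amount in both genotypes. It averaged 9.26 ± 1.08 FPKM in Dusp2-/- CD44hi against 1.83 FPKM in Dusp2-/- CD44lo (log2 difference 1.85, SE 0.139, adjusted p = 0.00028). In WT cells it averaged 6.82 ± 0.836 FPKM in CD44hi against 1.25 FPKM in CD44lo (log2 difference 1.79, SE 0.139, adjusted p = 0.00037). Ccl3 averaged 284 ± 7.01 FPKM in Dusp2-/- CD44hi against 139 FPKM in Dusp2-/- CD44lo (log2 difference 1.02, SE 0.084, adjusted p = 0.00038). In WT cells Ccl3 averaged 95.4 ± 4.49 FPKM in CD44hi against 25.5 FPKM in CD44lo, a larger log2 difference of 1.86 (SE 0.084, adjusted p = 8.3e-05).

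Ccl4 and Xcl1 differed little between the fractions of Dusp2-/- cells. Ccl4 was at 691 and 741 FPKM in Dusp2-/- CD44hi and at 628 FPKM in Dusp2-/- CD44lo (log2 difference 0.19, SE 0.107, adjusted p = 0.201). Ccl4 passed at the same size of 0.19 without WT CD44hi replicate 1 or replicate 2. Those libraries do not enter this difference, and without either the spread came from the Dusp2-/- CD44hi pair alone. Ccl4 also passed at 0.46 with quantile normalization (adjusted p = 0.0064). In WT cells Ccl4 was at 313 and 288 FPKM in CD44hi and at 120.4 FPKM in CD44lo, which passed (log2 difference 1.31, SE 0.107, adjusted p = 0.00048). Xcl1 was at 1386 and 1469.7 FPKM in Dusp2-/- CD44hi and at 1592 FPKM in Dusp2-/- CD44lo, a difference that did not pass (log2 difference -0.16, SE 0.137, adjusted p = 0.390) and turned to 0.14 with quantile normalization and 0.0500 with a length trend removed. In WT cells Xcl1 was at 1644 and 1610.3 FPKM in CD44hi and at 1116 FPKM in CD44lo (log2 difference 0.54, SE 0.137, adjusted p = 0.030). This last call was lost without Dusp2-/- CD44hi replicate 1 or replicate 2. Those libraries do not enter the WT difference, and without either the spread came from the WT CD44hi pair alone.

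**Figure D3:**
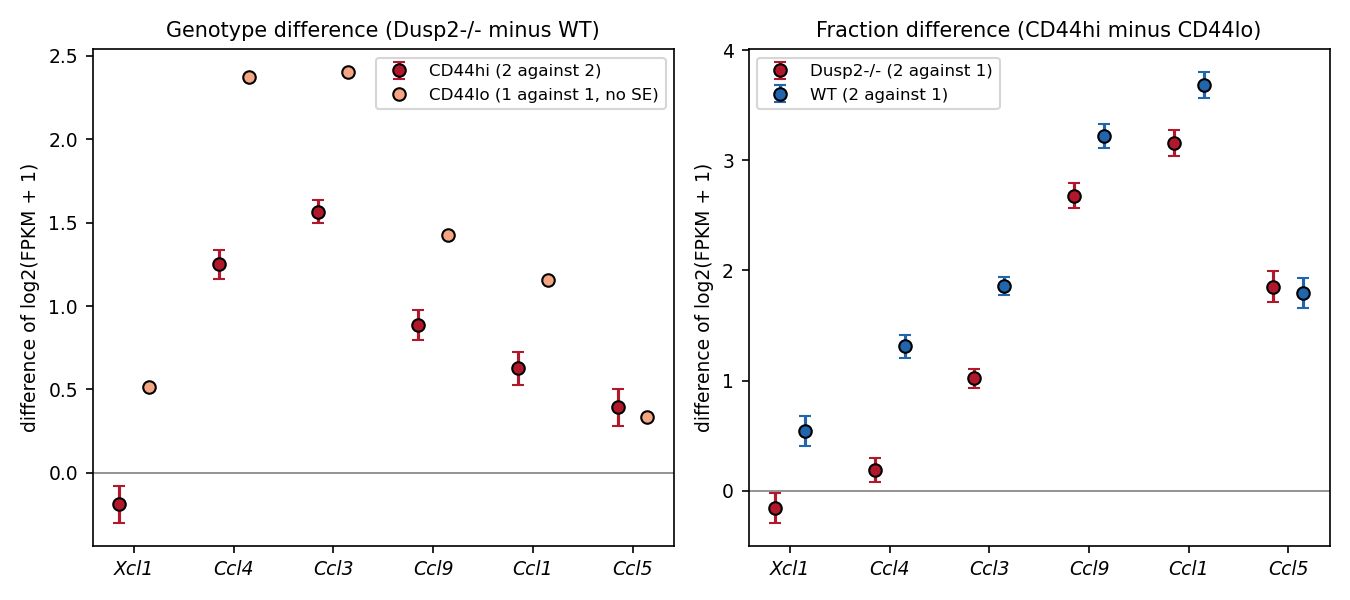
Differences of log2(FPKM + 1) for each chemokine gene, between genotypes in each fraction on the left and between fractions in each genotype on the right. Points are estimates and bars are limma standard errors, which the CD44lo genotype difference lacks. The CD44lo points lie above the CD44hi points for all genes except Ccl5, and the Dusp2-/- fraction differences of Ccl3, Ccl4, Ccl9, Ccl1 and Xcl1 lie below those of WT.

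Whether the genotype difference itself differed between fractions was tested with the interaction, the CD44hi difference minus the CD44lo difference. Each CD44lo arm holds 1 library, which the fit assumes to vary like the CD44hi pairs, so the SE and adjusted p hold no measured spread of CD44lo cells. Under that assumption the interaction was negative past the threshold for Ccl4 (-1.12, SE 0.152, adjusted p = 0.032) and Ccl3 (-0.84, SE 0.119, adjusted p = 0.032). These are 2 of the 6 genes, against 4.22% of all genes tested (1.49% negative). For both genes the Dusp2-/- minus WT difference between the single CD44lo libraries was the larger one. It did not pass for Xcl1 (-0.70, SE 0.193, adjusted p = 0.082, and -0.24 with quantile normalization), Ccl9 (-0.54, SE 0.156, adjusted p = 0.089), Ccl1 (-0.53, SE 0.171, adjusted p = 0.112) or Ccl5 (0.06, SE 0.196, adjusted p = 0.868). Without WT CD44hi replicate 1 it passed also for Xcl1 (-0.69), Ccl9 (-0.43) and Ccl1 (-0.41), as it did without WT CD44hi replicate 2 (-0.72, -0.65 and -0.64 in the same order), and the count of all genes called was 3067 without replicate 1 and 1695 without replicate 2, against 409 in the full data. In both of those fits the spread came from the Dusp2-/- CD44hi pair alone. At a pseudocount of 0.1 the interaction passed also for Ccl1 (-1.33) and Ccl9 (-0.95). Without the filter on low values it passed for none of the 6 (adjusted p = 0.115 for Ccl3 and 0.123 for Ccl4). Without the variance trend the adjusted p of Ccl3 was 0.0505.

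The interaction followed gene length across all genes tested (Spearman's rho 0.48 over 9691 genes, which share the libraries and are not independent replicates). The genotype differences did so too, with a rho of 0.267 in CD44hi and -0.329 in CD44lo. For the fraction differences it was 0.336 in Dusp2-/- cells and -0.091 in WT cells. Ccl3, Ccl4 and Xcl1 are short genes, with recovered lengths of 778, 670 and 531 bases, against 975 for Ccl5, 2406 for Ccl1 and 3093 for Ccl9. With a loess trend on length removed, the interaction was -0.86 for Ccl4 (adjusted p = 0.044) and -0.58 for Ccl3 (adjusted p = 0.068). The Ccl4 call was thus kept and the Ccl3 call was lost under that correction.

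The make-up of the chemokine transcripts differed between the genotypes in both fractions. Xcl1 made up 57.0% and 56.9% of the summed FPKM of the 6 genes in Dusp2-/- CD44hi, against 78.1% and 79.1% in WT CD44hi. It made up 67.2% in Dusp2-/- CD44lo and 88.2% in WT CD44lo. Ccl4 made up 28.4% and 28.7% in Dusp2-/- CD44hi and 14.8% and 14.1% in WT CD44hi. In CD44lo Ccl4 made up 26.5% in the Dusp2-/- library and 9.52% in the WT library, so its share was higher in Dusp2-/- libraries of both fractions. Ccl9, Ccl1 and Ccl5 together stayed a small part of the total in each library.

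**Figure D4:**
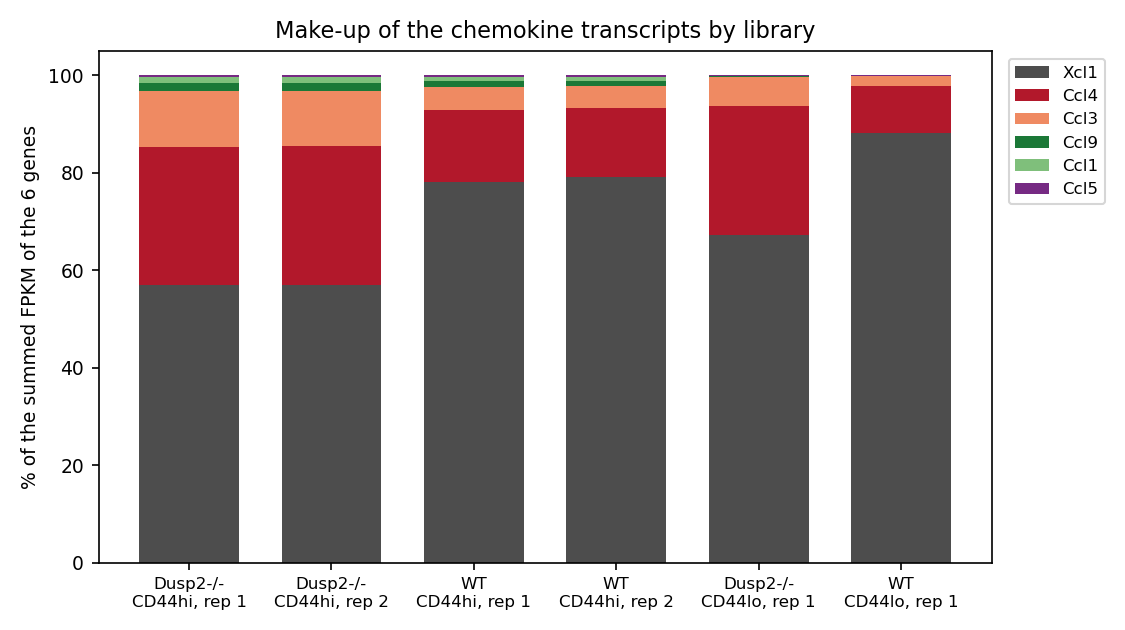
Share of each gene in the summed FPKM of the 6 chemokine genes, 1 stacked bar for each library. Xcl1 (grey) is the largest share in every bar, between 56.9% and 88.2%, and the Ccl4 and Ccl3 shares are wider in the Dusp2-/- bars than in the WT bars of the same fraction.

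Ratios between genes within a library do not depend on its depth or on a common scaling factor. The FPKM of Xcl1 over that of Ccl4 was 2.01 and 1.98 in Dusp2-/- CD44hi and 5.26 and 5.59 in WT CD44hi, and 2.54 in Dusp2-/- CD44lo and 9.27 in WT CD44lo. The ratio of Ccl4 over Ccl3 was 2.48 and 2.56 in Dusp2-/- CD44hi and 3.17 and 3.12 in WT CD44hi. In CD44lo it was 4.50 in Dusp2-/- and 4.71 in WT. Ccl4 thus outweighed Ccl3 the most in the CD44lo libraries. Ccl9 over Ccl1 was 1.45 and 1.41 in Dusp2-/- CD44hi and 1.18 and 1.20 in WT CD44hi, against 2.37 in Dusp2-/- CD44lo and 2.80 in WT CD44lo.

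To find the genes most like each member, each profile of log2(FPKM + 1) over the 6 libraries was centred on its own mean. Likeness is given as the root mean square difference between centred profiles, with smaller values more alike, among genes averaging 5 FPKM or more. The gene nearest to Ccl1 was Ccl9 (0.26), and the gene nearest to Ccl3 was Ccl4 (0.35). The gene nearest to Ccl4 was the histone gene H3c1 (0.30), followed by Ccl3, and the one nearest to Ccl9 was Pclaf (0.15), a clamp-associated factor of DNA replication, followed by the cyclin gene Ccna2 (0.24) and Ccl1. Pclaf was at 20.3 and 20.8 FPKM in Dusp2-/- CD44hi, against 9.90 and 10.2 FPKM in WT CD44hi. In the other fraction it was at 2.21 FPKM in Dusp2-/- CD44lo and 0.543 FPKM in WT CD44lo. Serpinb9, a granzyme B inhibitor, was the third nearest of both Ccl3 (0.38) and Ccl4 (0.40). Ccl5 was nearest to Cdca5 (0.14), Asns (0.16) and Lilr4b (0.17), and Xcl1 to Lsm2 (0.03), Mzt1 (0.03) and Cox7c (0.05). Xcl1, which varied least, was 1.57 from Ccl1 and 1.40 from Ccl9, the widest distances among the 6 genes.

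Of 35 other chemokine ligands, 20 were in the table and Cxcl10 alone reached a mean of 1 FPKM. Cxcl10, an interferon-induced ligand of Cxcr3, was lower where most members were higher. It was at 6.97 and 7.18 FPKM in Dusp2-/- CD44hi and 8.60 and 9.26 FPKM in WT CD44hi (log2 difference -0.30, SE 0.071, adjusted p = 0.026). It was at 17.9 FPKM in Dusp2-/- CD44lo and 24.5 FPKM in WT CD44lo. Cxcl10 was thus lower in CD44hi than in CD44lo, with log2 differences of -1.23 in Dusp2-/- (adjusted p = 0.00024) and -1.36 in WT (adjusted p = 0.00018).

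Among receptors of the members, Ccr1, Ccr3 and Xcr1 were at or below 0.0374 FPKM in all libraries. Ccr8, the receptor of Ccl1, was at 2.22 and 2.43 FPKM in Dusp2-/- CD44hi and 3.68 and 2.76 FPKM in WT CD44hi, which did not pass (log2 difference -0.34, SE 0.126, adjusted p = 0.092). It was at 0.963 FPKM in Dusp2-/- CD44lo and 1.20 FPKM in WT CD44lo and was higher in CD44hi of both genotypes (0.76 in Dusp2-/-, adjusted p = 0.0098, and 0.93 in WT, adjusted p = 0.0070). Of 18 other chemokine receptors 8 were tested, of which 4 were lower in Dusp2-/- CD44hi, none rose and 4 did not pass. The share lower over all genes tested was 13.8%. The median log2 difference of the 8 was -0.40, against -0.02 over all genes tested. The 4 lower receptors, named after their values were seen, were Cxcr4 (-1.15), Cxcr6 (-0.68), Ccr9 (-0.45) and Cxcr3 (-0.41). Between the single CD44lo libraries the differences were -0.85, 0.01, -0.58 and 0.78 in the same order, so Cxcr3 was higher in Dusp2-/- there. Of the 8, only Cxcr3 passed for the limma interaction (-1.19, adjusted p = 0.032), against 4.22% of all genes tested. That fit assumes that the CD44lo libraries vary like the CD44hi pairs.

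Cytokines that activated T cells secrete or display were set beside the chemokines. Of 11 listed, 8 were tested, and in CD44hi 6 were higher in Dusp2-/- and 2 did not pass. Over all genes tested, 12.9% were higher and 13.8% lower. The median log2 difference of the 8 was 0.95, against -0.02 over all genes tested. Ifng, encoding interferon gamma, was at 571 and 601 FPKM in Dusp2-/- CD44hi and 217 and 186 FPKM in WT CD44hi (log2 difference 1.54, adjusted p = 0.00064). Lta, encoding lymphotoxin alpha, differed by 1.30 (adjusted p = 0.00088) and Tnf by 0.47 (adjusted p = 0.022), while Tnfsf11 (0.07, adjusted p = 0.530) and Fasl (-0.11, adjusted p = 0.576) did not pass. In CD44lo, Ifng was at 77.7 FPKM in Dusp2-/- and 11.9 FPKM in WT. There 4 of the 8 were at least 2-fold higher in Dusp2-/-, against 0.795% of all genes tested. The named Ifng, Lta and Tnf were among the 4. Between fractions, 5 rose in CD44hi of Dusp2-/- cells and 6 in CD44hi of WT cells, against 23.6% and 15.4% of all genes tested. Ifng rose by 2.90 in Dusp2-/- (adjusted p = 6.1e-05) and by 3.96 in WT (adjusted p = 3.0e-05). Lta did not pass in either genotype (-0.17 in Dusp2-/-, adjusted p = 0.257, and -0.04 in WT, adjusted p = 0.826), and Tnf was lower in CD44hi of Dusp2-/- cells (-0.77, adjusted p = 0.0048), the 1 fall among the 8. The interaction was negative for Ifng (-1.06, adjusted p = 0.033), as for Ccl3 and Ccl4, and did not pass for the other 7. It passed for 4.22% of all genes tested (1.49% negative).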

How the data were processed

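The authors deposited 1 table in FPKM (fragments for each kilobase of a gene's length, relative to the fragments mapped), with 6 bulk RNA-seq libraries in columns. The submitters' processing notes list HISAT2 2.0.5, and among builds both mm39 and hg38, with no statement of what each served for. Neither counter nor annotation is given in the sources used here. The label description also names 10X Genomics, but the values are per library, not per cell. All columns matched a sample title, and 0 were left unused.

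Reads and gene lengths were recovered from the step size that a gene's FPKM share across libraries. All 12776 rows above 0 in the 6 libraries (100%) came out whole within 1e-06 reads, against 0% of 2000 perturbed rows. A common factor is not seen, so reads are minimal numbers.

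In R 4.3.3, limma 3.58.1 was fitted to log2(FPKM + 1) of the 9691 genes averaging 1 FPKM or more, with a variance trend, a coefficient for each group (the CD44hi pairs leave 2 residual degrees of freedom) and two-sided Benjamini-Hochberg adjustment at 0.05 over all genes tested. The CD44lo genotype difference has no test. Alternatives were other pseudocounts (0.1 and 0.5), no filter or a minimum of 5 FPKM, 3 other scalings, fits without the trend or with robust variance, voom on those reads, a length trend taken out, a replicate block, left-out libraries and a fit of the CD44hi libraries alone.

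The 6 genes and the lists were chosen with earlier results of these data known. Named beside the members are other ligands and member receptors with a mean of at least 1 FPKM, cytokines with at least 5 FPKM, and the 3 genes most like each member. A gene that this rule also names is not reported here. Replicates of 1 group differed by more than counting noise (chi-square per degree of freedom 7.14 in Dusp2-/- CD44hi and 33.0 in WT CD44hi), so none was treated as a duplicate. Promoter windows are RefSeq's. Figures were drawn with matplotlib 3.10.9.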

Additional observations from a re-analysis of the deposited data

Results flagged for a closer look

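For 2 genes the interaction of genotype and CD44 fraction passed in limma, under the assumption that the single CD44lo libraries vary like the CD44hi pairs. For Ccl4 the interaction was -1.12 on the log2(FPKM + 1) scale, with differences of 1.25 in CD44hi and 2.37 in CD44lo. For Ccl3 it was -0.84, with differences of 1.56 in CD44hi and 2.40 in CD44lo. Both rest on 1 Dusp2-/- CD44lo library and 1 WT CD44lo library, so no spread measured in CD44lo stands behind them. Over the alternatives the value ran from -1.18 to -0.85 for Ccl4 and from -0.89 to -0.58 for Ccl3.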

How the results depend on the processing

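Without the filter on low values, 18122 rows were tested in place of 9691, and 2 genes and 0 of the 6 chemokine genes were called by limma for the genotype in CD44hi (4678 genes and 4 of the 6 had an unadjusted p under 0.05). The adjusted p of the 5 called members was then 0.057 to 0.207 at unchanged differences. The same setting called 2085 genes between fractions in Dusp2-/-, 1170 in WT, and 39 genes and 0 members for the interaction (3 members had an unadjusted p under 0.05). The interaction called 409 genes and 2 members in the full data, 684 genes with median-ratio scaling, 117 genes and 1 member without the variance trend, 238 genes and 1 member with the length trend removed, and 4 members at a pseudocount of 0.1. Leaving out 1 library gave 1077 to 4105 genes for the genotype in CD44hi, 2505 to 5505 between fractions in Dusp2-/-, 2158 to 3815 in WT, and 348 to 3067 genes and 2 to 5 members for the interaction. In CD44lo, 163 genes were 2-fold or more apart, against 323 at a pseudocount of 0.1, 62 at a minimum of 5 FPKM and 288 after rescaling to a total of 1000000, with 4 members in each.

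Reversals were limited to small values. The fraction difference of Xcl1 in Dusp2-/- became 0.14 with quantile normalization and 0.0500 with the length trend removed. The interaction of Ccl5 became -0.0835 and -0.00083 at pseudocounts of 0.1 and 0.5, -0.13 with voom, and -0.0508 to 0.168 over the left-out libraries, negative without Dusp2-/- CD44hi replicate 2 or WT CD44hi replicate 1. Among calls, Ccl5 in CD44hi also missed the threshold at a pseudocount of 0.1 (adjusted p = 0.051), with quantile normalization (0.063), without the trend (0.051) and with voom (0.069). Xcl1 between WT fractions missed it with no filter (0.152) and median-ratio scaling (0.081). Ccl4 between Dusp2-/- fractions passed with quantile normalization (0.46), rescaling (0.33) and the length trend removed (0.40). The Ccl3 interaction missed it without the filter (0.115) and without the trend (0.0505), and the Ccl4 interaction without the filter (0.123). The Xcl1 interaction passed with voom (0.024), and those of Ccl1 (-1.33) and Ccl9 (-0.95) at a pseudocount of 0.1. The cause was not tested.

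Replicate 1 minus replicate 2 in Dusp2-/- CD44hi correlated at 0.0224 over genes with the same difference in WT CD44hi. That value shows no strong shared shift, but it cannot tell whether libraries of the same number were handled together. With the replicate block the interaction called 1565 genes and 4 members, the genotype in CD44hi 3326 against 2586 genes, and Xcl1 between WT fractions lost its call (adjusted p = 0.095). Rescaling moved the median of all genes to 0.18 between fractions in Dusp2-/- (0.05 in the full data), to 0.13 for the interaction (-0.01) and to -0.11 in CD44lo (-0.01). It gave 1292 higher and 914 lower genes for the genotype in CD44hi (1248 and 1338 in the full data), 3154 and 969 between fractions in Dusp2-/- (2285 and 1603), and 379 and 43 for the interaction (265 and 144, and 423 and 130 with voom). Median-ratio scaling gave 1190 and 1403 between WT fractions (1490 and 1037). With 1 CD44lo library per genotype, no spread is known there.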
